A study of Mus musculus with 12 samples.

Results

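The miR-181 family is made up here of the 4 mature miRNAs mmu-miR-181a, mmu-miR-181b, mmu-miR-181c and mmu-miR-181d, taken by their exact names from the 469 miRNAs listed in the count tables. The opposite arms, marked with a star in the tables, are described separately. All 4 members were listed in every library, and all 4 were among the 431 miRNAs tested. Small RNA had been sequenced from the frontal cortex (FCx) and the hippocampus (HP) of male C57BL/6J mice aged 8 weeks. The tissue of 3 mice went into 1 pool per region before the RNA was extracted, so the spread between animals cannot be seen. From each pool 3 libraries were made with separate indexes. An index is a 6 nt tag at the end of the 5′ adaptor, ligated directly to the first base of the miRNA. The indexes are numbered 3, 7 and 11, and every library was sequenced in an individual and in a pooled lane. The counts of both runs were added, which gave n = 3 technical libraries per region. The methods place the FCx dissection in a brain slice posterior to Bregma.

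MiRNAs of 1 family share the seed, the short stretch near the 5′ end by which a miRNA finds its target mRNAs, and so can repress overlapping sets of targets. The miR-181 family is conserved among vertebrates and is known for its abundance in lymphocytes and brain. In T cells miR-181a tunes the sensitivity of the antigen receptor, and in hippocampal neurons it represses the AMPA receptor subunit Gria2. The members are cut from paired hairpins at separate places in the genome, and the arm of a hairpin that is not kept is called the passenger or star strand.

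The mature sequences of the 4 members, from RefSeq (GRCm38.p6), are shown because they share their 5′ end and differ further on. Capitals mark the seed, bases 2 to 8.
mmu-miR-181a: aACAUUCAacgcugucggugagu
mmu-miR-181b: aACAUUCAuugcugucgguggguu
mmu-miR-181c: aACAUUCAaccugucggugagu
mmu-miR-181d: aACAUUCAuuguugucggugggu

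The first 8 bases were identical in the 4 members, so the base joined to the index and those next to it do not differ between them. Of the 1679 mature mouse miRNAs in the RefSeq table, 4 had the seed ACAUUCA, and they were these 4. Counted from 1 at the 5′ end, miR-181a and miR-181b differed by the substitutions A9U, C10U and A21G, and miR-181b has 1 further base at its 3′ end. MiR-181b and miR-181d differed within their shared length of 23 nt only by C12U. MiR-181c is miR-181a with 1 base missing, and the letters first differ at position 11. The count tables were made with up to 2 mismatches allowed, so reads of miR-181b and miR-181d, which differ by 1 substitution, may have been shared between their rows, and their counts are uncertain to that extent. Reads of miR-181a and miR-181b that end before base 21 differ only by A9U and C10U, so the same holds for these. Reads of 14 to 18 nt were 15.3% at the 5p arm of miR-181a and 6.87% at that of miR-181b.

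The hairpins lie in 3 pairs. On NCBIM37, to which the authors aligned their reads, Mir181a-1 is at chr1:139863032-139863118 and Mir181b-1 at chr1:139863216-139863295, both on the + strand and outside annotated genes. Mir181a-2 is at chr2:38708255-38708330 and Mir181b-2 at chr2:38709350-38709438, on the + strand, within an intron of Nr6a1, which is transcribed from the opposite strand. Mir181c is at chr8:86702762-86702867 and Mir181d at chr8:86702615-86702686, both on the - strand, between genes and 2.2 kb from Nanos3 at the nearest arm. Within a pair the 5p arms start 182 nt apart on chromosome 1, 1104 nt apart on chromosome 2 and 165 nt apart on chromosome 8. The mature miR-181a and miR-181b each come from 2 hairpins with the same 5p sequence, so their counts are the sum of both loci.

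The libraries held 391410 to 1461732 miRNA counts in FCx and 3206221 to 4956117 in HP, so the low members are measured less precisely in FCx. A count of 0 allows up to 7.66 CPM (reads per 1000000 miRNA counts of a library) in the shallowest library. The 6 neuronal miRNAs of a marker list (miR-124, miR-9, miR-9*, miR-128, miR-137 and miR-138) were all detected in every library and together made up 243608 to 275586 CPM in FCx and 149702 to 170092 CPM in HP. The 8 miRNAs of a choroid plexus and ependyma list (miR-204, miR-211, miR-34b-5p, miR-34c, miR-449a, miR-200a, miR-200b and miR-429) summed to 1214 to 5459 CPM in FCx against 116 to 404 CPM in HP. On the CPM scale both sums were higher in FCx with no overlap between the regions, and single miRNAs carried them. Without miR-128 the 5 remaining neuronal miRNAs summed to 35145 to 95862 CPM in FCx and 39207 to 99358 CPM in HP. Without miR-200a, miR-200b and miR-429 the 5 remaining choroid plexus and ependyma miRNAs summed to 50.6 to 94.5 CPM in FCx and 92.5 to 273 CPM in HP. The part of these lists in the values of the miR-181 members was not tested.

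All 4 members were expressed in both regions, and miR-181a and miR-181b made up over 90% of the family's counts in each library. The family total in FCx was 3878, 2024 and 4163 CPM with index 3, 7 and 11, with a mean of 3355 ± 1162 CPM (SD, n = 3). In HP it was 2463, 2442 and 2713 CPM, with a mean of 2540 ± 151 CPM (SD, n = 3). The RNA is from whole tissue, so fewer cells of a type and less RNA per cell cannot be told apart. The family took 0.287% of all miRNA counts of FCx and 0.254% of those of HP. The FCx total lay above every HP library with indexes 3 and 11 and below every HP library with index 7, so the regions overlapped. With library sizes scaled by TMM, edgeR's normalization by a trimmed mean, the difference turned from 815 CPM higher in FCx to 165 CPM lower.

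MiR-181a had the highest level of the family with indexes 3 and 7. It was counted at 2744, 1188 and 1427 CPM in FCx and at 1660, 1507 and 1161 CPM in HP, with index 3, 7 and 11 in this order. The mean over the 3 libraries was 1786 ± 838 CPM (SD) in FCx and 1443 ± 255.4 CPM (SD) in HP. The FCx library with index 3 was above the other 5 libraries, which overlapped. Among all miRNAs listed, miR-181a ranked between 30 and 41 in each library.

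MiR-181b, whose hairpins lie beside those of miR-181a, was at 869, 640 and 2629 CPM in FCx and at 597, 709 and 1462 CPM in HP. Both libraries with index 11 were higher than the 4 others, whichever the region. The mean over the 3 libraries was 1379 ± 1088 CPM (SD) in FCx and 923 ± 470 CPM (SD) in HP. It ranked 25 and 32 with index 11 and 52 to 63 with the other indexes.

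MiR-181d was at 179, 171 and 88.9 CPM in FCx and at 165, 191 and 72.3 CPM in HP. Index 11 stood opposite to its place for miR-181b, since both of its libraries were the lowest. The FCx libraries averaged 146 ± 49.8 CPM (SD, n = 3) and the HP libraries 143 ± 62.4 CPM (SD, n = 3).

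MiR-181c, the other member of the pair on chromosome 8, had the lowest level. It was at 86.9, 25.3 and 18.4 CPM in FCx, from 34, 37 and 12 counts, and at 41.2, 35.1 and 17.8 CPM in HP, from 132, 174 and 72 counts. It was highest with index 3 and lowest with index 11 in both regions. The FCx libraries averaged 43.5 ± 37.7 CPM (SD, n = 3) and the HP libraries 31.3 ± 12.1 CPM (SD, n = 3).

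**Figure D1:**
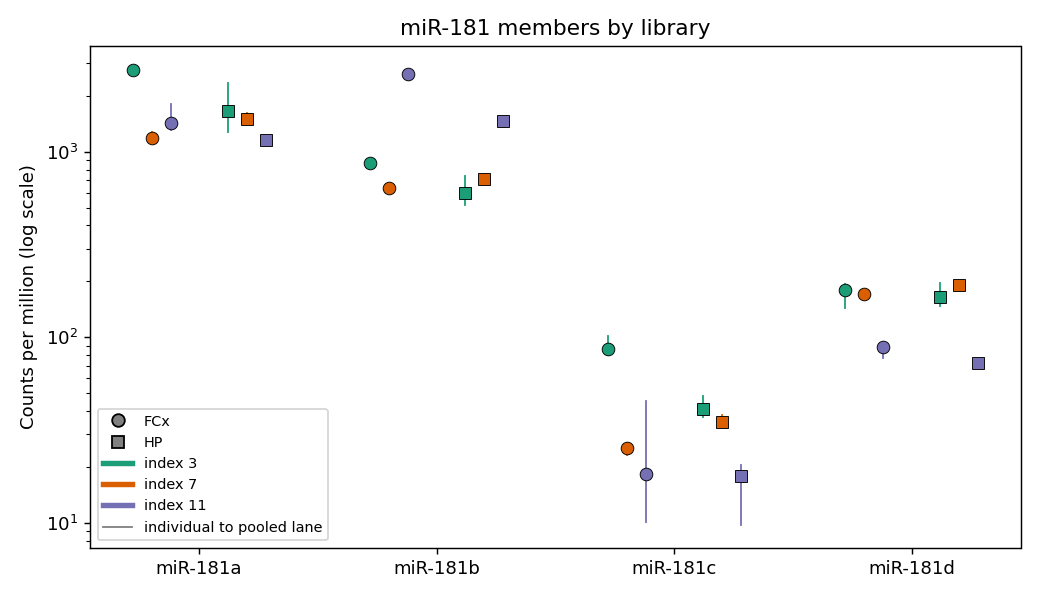
Level in CPM (log axis) of the 4 members in each library. Circles are FCx, squares are HP, colours are the indexes and the thin lines join the individual and the pooled lane of the same library. MiR-181b with index 11 reaches 2629 CPM in FCx and 1462 CPM in HP, above its 4 other libraries.

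The mature members are of similar length (22 to 24 nt) and a read covers a whole mature miRNA, so no correction for length was made. The libraries were amplified by PCR without molecular tags, so reads are not independent molecules. With indexes 3 and 7 the order in both regions was miR-181a, miR-181b, miR-181d and miR-181c. With index 11 miR-181b stood above miR-181a in both regions. The ranges of miR-181a and miR-181b over the libraries overlapped within each region, so their order was not larger than the spread. MiR-181b lay above miR-181d, and miR-181d above miR-181c, without overlap in either region, although in FCx the lowest miR-181d library (88.9 CPM) was barely above the highest miR-181c library (86.9 CPM). Counts depend on how well each miRNA is joined to the adaptor, so the order is one of counts.

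Both runs of each library were also compared. The median absolute log2 ratio of the pooled to the individual lane over the 6 libraries was 0.17 for miR-181a, 0.13 for miR-181b and 0.19 for miR-181d. The largest ratio of miR-181a was 0.87, in the HP library with index 3, where it was at 1275 CPM in the individual and 2332 CPM in the pooled lane. With index 3 the fold of miR-181a in FCx over HP was 2.13 in the individual and 1.20 in the pooled lanes. The largest ratio was 0.51 for miR-181b, in the same HP library, and 0.42 for miR-181d. For miR-181c the median was 0.35, and the ratio reached 2.16 in the FCx library with index 11, where it rests on 7 and 5 counts.

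The first question of the design is whether the members are expressed on a different level in FCx and HP. No member passed the test. In edgeR's quasi-likelihood test with TMM, the log2 ratio of FCx over HP was -0.19 ± 0.64 (SE) for miR-181a, 0.08 ± 0.84 for miR-181b, -0.07 ± 0.84 for miR-181c and -0.29 ± 0.76 for miR-181d. The Benjamini-Hochberg adjusted p over all miRNAs tested was 0.992 for miR-181a, miR-181b and miR-181d and 0.994 for miR-181c. In this fit 0.464% of the 431 miRNAs were called at an adjusted p under 0.05, which is 2 miRNAs, and 17 had an unadjusted p under 0.05, none of them a member. The 95% interval of the miR-181a ratio ran from -1.59 to 1.22 on the log2 scale, and that of miR-181b from -1.79 to 1.95, so differences of well over 2-fold in either direction were not detectable without accounting for the index.

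Since each index occurs once in each region, FCx and HP can be compared within an index. With index 3 all 4 members were higher in FCx, by 1.65-fold for miR-181a, 1.45-fold for miR-181b, 2.11-fold for miR-181c and 1.08-fold for miR-181d. With index 7 all 4 were lower in FCx, at 0.788, 0.902, 0.721 and 0.895 of their HP level in the same order. With index 11 all 4 were again higher in FCx, by 1.23-fold, 1.80-fold, 1.04-fold and 1.23-fold. On this scale the members thus had the same direction within an index, and these ratios share the library totals. It was not the same in the runs taken alone, since miR-181c with index 11 stood at 0.491 in the individual lanes and miR-181d with index 3 at 0.737 in the pooled lanes. It also depended on the scaling. With TMM-scaled library sizes, tried after the data had been seen, FCx over HP with index 3, 7 and 11 was 0.980, 0.886 and 0.770 for miR-181a, 0.862, 1.015 and 1.13 for miR-181b, 1.25, 0.811 and 0.649 for miR-181c and 0.642, 1.007 and 0.771 for miR-181d. The family total was then at 0.933, 0.932 and 0.961 of its HP level, so lower in FCx with each index.

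With the index fitted as a block the intervals narrowed and no member passed the test. The log2 ratio of FCx over HP was then -0.19 ± 0.29 (SE) for miR-181a, -0.01 ± 0.29 for miR-181b, -0.16 ± 0.32 for miR-181c and -0.32 ± 0.28 for miR-181d. The adjusted p in the blocked edgeR fit was 0.745, 0.993, 0.820 and 0.520. In this blocked fit 17.9% of the miRNAs tested were called, 77 in all, against 0 of the 4 members. The 95% intervals ran from -0.76 to 0.37 for miR-181a, from -0.57 to 0.56 for miR-181b, from -0.80 to 0.48 for miR-181c and from -0.87 to 0.22 for miR-181d. They cover the spread between libraries of a single RNA pool per region and not that between mice.

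The sign of the ratios depended on the scaling. With the index as a block and library totals in place of TMM, the log2 ratio was 0.23 for miR-181a, 0.41 for miR-181b, 0.22 for miR-181c and 0.08 for miR-181d. In this fit 13% of the miRNAs were called, and the members had adjusted p-values in edgeR of 0.783, 0.481, 0.840 and 0.950. TMM placed the median log2 ratio of all 431 miRNAs at -0.38 in the blocked fit, and library totals placed it at -0.01. The median of the 4 members was -0.18 and 0.22 under these scalings, which is given as a description of these 4 rows. MiR-128, the neuronal miRNA with 193829 CPM in FCx and 81735 CPM in HP (means, n = 3), takes a larger part of the FCx totals. Whether it bears on the change of sign between the scalings was not tested.

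**Figure D2:**
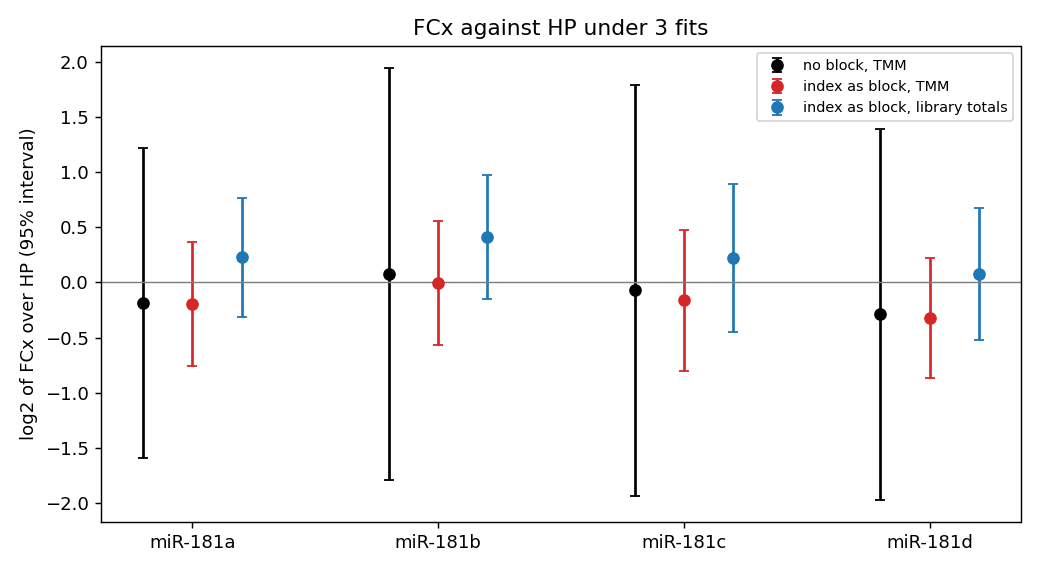
Log2 ratio of FCx over HP of each member, with its 95% interval, in 3 edgeR fits, namely TMM alone, TMM with an index block, and library totals with an index block. Every interval includes 0, and the blocked TMM values run from -0.32 to -0.01 against 0.08 to 0.41 with library totals.

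Other miRNAs of brain tissue were compared with the same fits. Of 20 miRNAs known from synapses and neurons, 19 were listed and tested, and miR-188 was not analysed here. None of the 19 passed the test without the block. With the block 2 passed it on the FCx side and 5 on the HP side, and with library totals these were 5 and 3. Over all 431 miRNAs tested, 22 passed on the FCx side and 55 on the HP side with the block. With library totals these were 36 and 20, so the side with more calls changed with the scaling over all miRNAs too. The median log2 ratio of the 19 was -0.25 with the block and 0.10 with library totals. The pair with the smallest p without the block was miR-26a and miR-191. MiR-26a had a log2 ratio of -1.07 in the blocked edgeR fit (adjusted p = 0.00595) and -0.65 with library totals (adjusted p = 0.0225). MiR-191 had -1.16 with the block (adjusted p = 0.00252) and -0.67 with library totals (adjusted p = 0.225). In the 8 choroid plexus and ependyma miRNAs, 3 passed the test on each side with the block. With library totals these were 3 on the FCx side and 2 on the HP side. MiR-200a, an epithelial miRNA, had a log2 ratio of 5.40 in the blocked edgeR fit (adjusted p = 5.1e-44), and miR-200b had 4.65 (adjusted p = 4.06e-39). Without the block neither passed the edgeR test (adjusted p = 0.119 for each). On the HP side the blocked log2 ratio was -2.72 for miR-34b-5p, -2.09 for miR-34c and -1.49 for miR-204.

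The calls over all 431 miRNAs were 22 on the FCx and 55 on the HP side with the block, and 36 and 20 with library totals. Of the 6 neuronal miRNAs, 2 passed the test on the HP side with the block, and with library totals 2 passed on the FCx side and 1 on the HP side. Their pair with the smallest p was miR-128, with a log2 ratio of 0.86 in the blocked edgeR fit (adjusted p = 0.0631) and 1.29 with library totals (adjusted p = 3.8e-15), and miR-9, with -0.89 (adjusted p = 0.0348) and -0.47 (adjusted p = 0.0736). The call of each of them thus depended on the scaling.

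Of the other marker lists, the 6 leukocyte and microglia miRNAs (among them miR-142-5p and miR-146a, both at -0.53 on the log2 scale with the block) had no call in any of the 3 fits, and summed to 84.1 to 273 CPM in FCx and 137 to 265 CPM in HP. Of the 3 red cell miRNAs, miR-486 was called with the block and library totals alone, with a log2 ratio of 1.03 and an adjusted p in edgeR of 0.0235, while miR-144 was at a mean of 0.228 CPM in FCx and 0.834 CPM in HP. Of the 2 endothelial miRNAs miR-126-5p was called in the blocked TMM fit, at -0.97 on the log2 scale (adjusted p in edgeR 0.00764), and of the 2 oligodendrocyte miRNAs miR-219, at -1.09 (adjusted p in edgeR 0.00287). The summed level was 64.4 to 172 CPM in FCx and 35.0 to 165 CPM in HP for the red cell list, 74.6 to 113 and 89.6 to 150 CPM for the endothelial list and 529 to 1597 and 406 to 2307 CPM for the oligodendrocyte list, so the regions overlapped in each. Neither miR-126-5p nor miR-219 passed the test with library totals, with adjusted p-values in edgeR of 0.261 and 0.185.

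The second question is how the index changed the members. In edgeR with the region in the model, 61.3% of the miRNAs tested differed between indexes, 264 of 431, and 3 of the 4 members were among them. MiR-181b with index 11 was higher by 1.95 ± 0.36 (SE) on the log2 scale than with index 3 and by 1.70 ± 0.36 than with index 7. Its adjusted p over both index terms in edgeR was 1.62e-08. MiR-181d with index 11 was lower than with index 7, with a log2 difference of -1.02 ± 0.34 (SE) and an adjusted p over both index terms in edgeR of 0.0210. MiR-181c with index 11 was lower than with index 3, with a log2 difference of -1.11 ± 0.40 (SE) and an adjusted p over both index terms in edgeR of 0.0352. MiR-181a did not pass the test, with a largest log2 difference of -0.33 ± 0.35 (SE, index 7 minus index 3) and an adjusted p over both index terms in edgeR of 0.715.

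MiR-181b remained past the threshold in all 11 fits of the index effect, with adjusted p-values in edgeR up to 0.00295. MiR-181c passed in 4 of the 11 and miR-181d in 6. MiR-181c did not pass without the FCx library of any index or without the HP library of index 3 or 7, with log2 differences of -0.65, -0.87, -0.65, -1.56 and -0.88 in this order. MiR-181d did not pass without the FCx library of index 7 or 11 or without the HP library of any index, with log2 differences of -0.52, -0.60, -1.003, -0.87 and -0.79. Over the 431 miRNAs the median of the largest difference between any pair of indexes was 2.21 on the log2 scale, and the values of the members lay below it, at 0.33 for miR-181a, 1.95 for miR-181b, 1.11 for miR-181c and 1.02 for miR-181d.

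**Figure D3:**
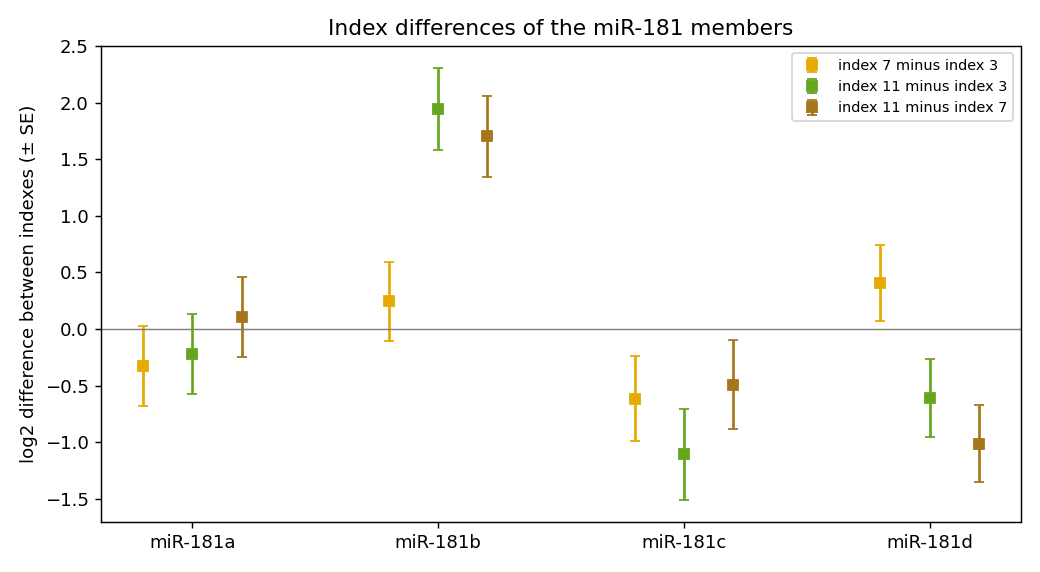
Log2 difference between indexes of each member with its SE, from edgeR with the region in the model. Index 11 stands 1.95 above index 3 for miR-181b and 1.11 below it for miR-181c. The first 8 bases of the members are the same, and the cause of these differences was not tested.

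The make-up of the family differed between the indexes in a like way in both regions. With index 3, 7 and 11 miR-181b made up 22.4%, 31.6% and 63.1% of the family's counts in FCx. The corresponding HP shares were 24.2%, 29.0% and 53.9%. The share was thus highest with index 11 in each region, and its 95% Wilson interval there, 61.3% to 64.9% in FCx and 53.0% to 54.8% in HP, covers counting error only. The share of miR-181a with index 3, 7 and 11 was 70.8%, 58.7% and 34.3% in the FCx libraries and 67.4%, 61.7% and 42.8% in the HP libraries. That of miR-181d was 4.61%, 8.45% and 2.14% in the FCx libraries and 6.70%, 7.82% and 2.66% in the HP libraries. Of miR-181c it was 2.24%, 1.25% and 0.442% in the FCx libraries and 1.67%, 1.44% and 0.655% in the HP libraries. From index 3 to index 7 the shares of miR-181b and miR-181d were higher and those of miR-181a and miR-181c lower, in both regions.

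Between the regions the shares overlapped for every member. The mean share of miR-181a was 54.6% ± 18.6 in FCx and 57.3% ± 12.9 in HP (SD, n = 3, exact permutation p = 0.9, two-sided). That of miR-181b was 39.1% ± 21.4 and 35.7% ± 15.9 (n = 3, exact permutation p = 0.7), that of miR-181c 1.31% ± 0.900 and 1.25% ± 0.533 (n = 3, exact permutation p = 1) and that of miR-181d 5.07% ± 3.18 and 5.73% ± 2.71 (n = 3, exact permutation p = 0.9). With 3 libraries against 3 this test cannot give a p under 0.1. Within an index the region changed the share of miR-181b by -1.85, 2.58 and 9.26 percentage points (FCx minus HP with index 3, 7 and 11).

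**Figure D4:**
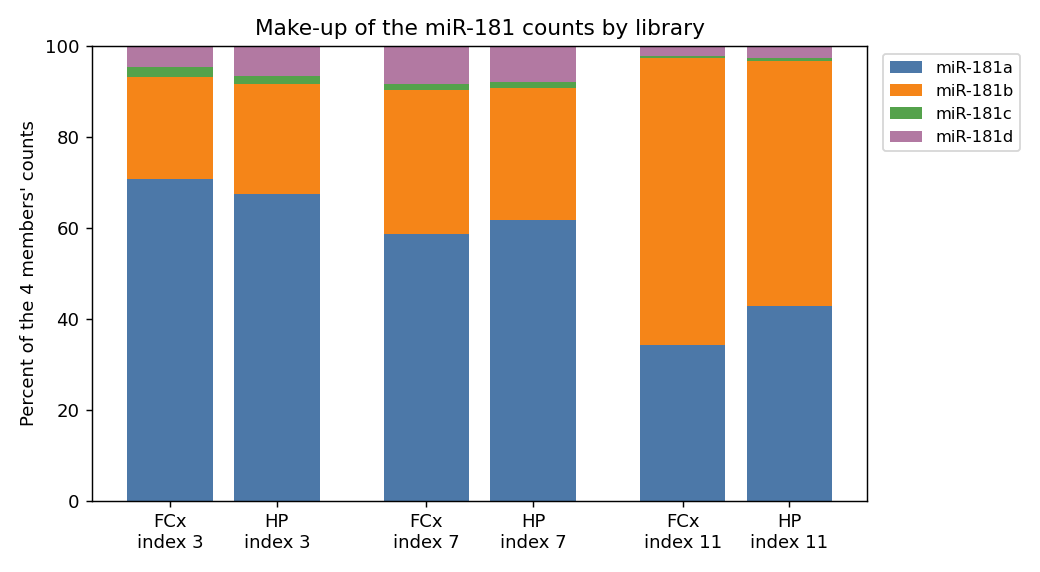
Share of each member in the summed counts of the 4 members, in percent, for each library, with the libraries of an index side by side. The share of miR-181b is 63.1% (FCx) and 53.9% (HP) with index 11 and at most 31.6% with the other indexes.

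Ratios between members within a library do not depend on the library total. MiR-181b over miR-181a was 0.317, 0.539 and 1.84 in the FCx libraries and 0.360, 0.470 and 1.26 in HP with index 3, 7 and 11. MiR-181b over miR-181d, which differ in their shared length by the single substitution given above, was 4.86, 3.74 and 29.6 in the FCx libraries and 3.62, 3.71 and 20.2 in HP. Both ratios were thus higher in the index 11 libraries than in all others, and for miR-181b over miR-181d by over 4-fold. MiR-181a over miR-181c did not overlap between indexes, with 31.6 and 40.3 with index 3, 46.9 and 42.9 with index 7 and 77.6 and 65.4 with index 11 (FCx and HP).

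The fold between the highest and the lowest library was smaller for the family total than for its members in HP. It was 1.11 for the total, 1.43 for miR-181a, 2.45 for miR-181b, 2.32 for miR-181c and 2.64 for miR-181d. In FCx it was 2.06 for the total and 2.31, 4.11, 4.72 and 2.01 for the members. Of the 139 miRNAs that averaged 100 CPM or more, the median fold between libraries was 4.32 in FCx and 3.85 in HP.

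Over the 6 libraries the members fell into no single pattern. The Pearson correlation of log2 CPM (n = 6 libraries, which share 3 indexes and 2 RNA pools) was 0.92 between miR-181a and miR-181c and 0.73 between miR-181c and miR-181d. It was -0.84 between miR-181b and miR-181d and -0.19 between miR-181a and miR-181b. Each member was compared with the 172 other miRNAs that had at least 10 counts in each library. Those most like miR-181a were miR-320 (r = 0.92), miR-181c (0.92) and miR-409-5p (0.89). Those most like miR-181b were miR-29b (0.97), miR-93 (0.92) and miR-873 (0.91), and those most like miR-181c were miR-409-5p (0.96), let-7b* (0.96) and miR-376a (0.94). Those most like miR-181d were miR-669c (0.99), miR-107 (0.99) and miR-330 (0.98). No other member was among the 3 most like miR-181b, miR-181c or miR-181d.

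The genome alignments, given as 1 position per read, were used to follow the arms of the hairpins. Reads were assigned to an arm where they overlapped it by at least 14 nt on its strand. The reads at the 5p arms were 92.0% to 100% of the counts in the tables for each member and library. The identical 5p arms of miR-181a were placed about evenly on both loci, 46.8% to 50.8% of them on chromosome 1, as were those of miR-181b, with 48.5% to 54.7%, so the 5p reads do not show which locus was active. The 3p arms of Mir181a-1 and Mir181a-2 differ by the substitutions U5C and U16C. The 2 mismatches that the authors allowed also applied to the genome alignment. Reads of Mir181a-1 and Mir181a-2, or of Mir181a-1 and Mir181c, may thus have been placed at the other 3p arm, and the reads below are given as placed. The 3p arms of Mir181a-1 and Mir181a-2 are shown with that of Mir181c, which has no row in the count tables, and capitals mark bases 2 to 8.
mmu-miR-181a-1-3p: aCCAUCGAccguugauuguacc
mmu-miR-181a-2-3p: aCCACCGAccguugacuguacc
mmu-miR-181c-3p: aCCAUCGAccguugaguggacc

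The 3p arm of Mir181a-1 gave 21, 72 and 32 reads in FCx with index 3, 7 and 11 and 165, 219 and 208 in HP. That of Mir181a-2 gave 1, 5 and 2 reads in FCx and 2, 27 and 11 in HP. As placed on the genome, Mir181a-1 held 89.0% to 98.8% of these reads in each library. In the count tables mmu-miR-181a-1* was at 53.7, 61.6 and 75.1 CPM in FCx and at 53.3, 55.7 and 62.4 CPM in HP. It was called in neither comparison, with a log2 ratio of FCx over HP of -0.25 ± 0.79 (SE, adjusted p in edgeR 0.992) and an adjusted p for the index in edgeR of 0.130. Mmu-miR-181a-2* had 0, 3 and 1 counts in FCx and 1, 12 and 6 in HP, too few for a comparison.

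By the reads placed on the genome, the 3p arm of Mir181c was read almost as often as the 5p arm over all libraries, at 49.2% of both arms' reads. In FCx it gave 6 of 38 reads with index 3, 54 of 91 with index 7 and 30 of 42 with index 11. In HP it gave 43 of 173, 175 of 348 and 132 of 202. The share of the 3p arm was 15.8%, 59.3% and 71.4% in the FCx libraries and 24.9%, 50.3% and 65.3% in HP, so the 5p arm had more reads with index 3 and the 3p arm with index 11 in both regions. With index 7 the arms were within counting error of each other in both regions, with a 95% Wilson interval of 49.1% to 68.9% in FCx. The 95% Wilson intervals of the HP libraries (19.01% to 31.8%, 45.1% to 55.5% and 58.6% to 71.6%) do not overlap between indexes and cover counting error only. Between the regions the mean share was 48.9% ± 29.3 in FCx and 46.8% ± 20.5 in HP (SD, n = 3, exact permutation p = 1, two-sided), so no difference between regions was detectable.

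**Figure D5:**
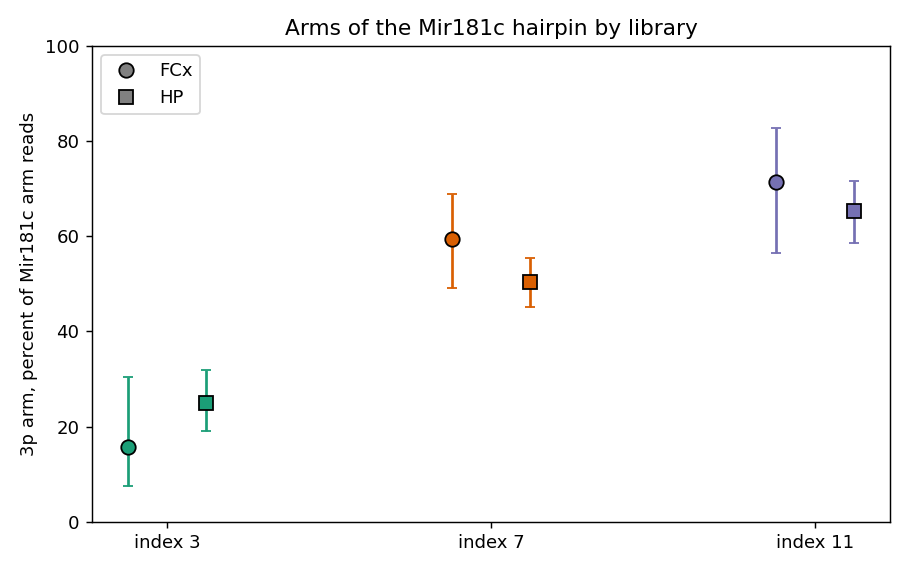
Share of the 3p arm among reads at both arms of the Mir181c hairpin, in percent with the 95% Wilson interval, by index, with circles for FCx and squares for HP. It goes from 15.8% and 24.9% with index 3 to 71.4% and 65.3% with index 11.

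The sequences of the 3p arms of Mir181a-1 and Mir181c differ by the substitutions U16G and U19G, which is within the 2 mismatches allowed by the authors. The count tables gave mmu-miR-181a-1* 0, 18 and 17 counts more than the genome reads at its arm in FCx and 6, 57 and 45 more in HP with index 3, 7 and 11. The excess was larger with indexes 7 and 11, where the 3p arm of Mir181c had more reads, and the row of mmu-miR-181a-1* is uncertain to that extent. The 3p arm of Mir181a-2 also differs from that of Mir181a-1 by 2 substitutions. Its row, mmu-miR-181a-2*, held fewer counts than the genome reads at its arm in every library. The gap was widest for the HP library with index 7, with 12 counts for 27 reads. In that library the excess of mmu-miR-181a-1* was 57 counts. Whether the excess counts are reads of Mir181c or of Mir181a-2 was not tested. The other hairpins were read almost only from the 5p arm. The 3p share was 2.03% to 4.58% in the libraries for the Mir181a hairpins together, 0.0590% to 0.332% for the Mir181b hairpins and 0.144% over all libraries for Mir181d, with 3 reads in the HP library of index 7 and none in the others.

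The 5′ end sets the seed, and nearly all reads of the 5p arms started at the annotated base. The share of reads at this start was 97.1% to 99.0% for miR-181a and 95.4% to 98.5% for miR-181b over the 6 libraries. It was 91.0% to 99.3% for miR-181d and 83.3% to 98.6% for miR-181c, which had only 12 to 37 reads in the FCx libraries. For miR-181c the share in FCx (86.8% ± 3.66) was below that in HP (97.3% ± 1.22) without overlap (SD, n = 3, exact permutation p = 0.1, unadjusted, the smallest this design allows). With the individual lanes alone the difference was -8.75 percentage points (exact permutation p = 0.4) and with the pooled lanes alone -5.85 (exact permutation p = 0.7). It was 1 of 6 arms compared, and the other 5 overlapped between the regions, with exact permutation p-values of 0.3 to 0.9.

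Reads starting 1 nt further in, which have a seed shifted by 1 base, were fewer with index 11. For miR-181a they were 1.70%, 2.42% and 0.553% of reads in FCx and 2.26%, 1.89% and 0.613% in HP with index 3, 7 and 11. For miR-181b they were 3.05%, 3.20% and 1.12% in FCx and 2.16%, 3.29% and 1.35% in HP. For miR-181d they were 6 of 67, 12 of 230 and 0 of 54 reads in FCx and 36 of 515, 37 of 930 and 1 of 288 in HP. MiR-181c had 0 to 5 such reads per library, too few to compare. The lowest share thus belonged to index 11 in both regions for these 3 members, and for the 0 of 54 reads a count of 0 allows up to 3 reads.

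Lengths were not compared, since 83.6% of all alignments were exactly 22 nt and 0.212% were 19 to 21 nt long, and no read was longer than 23 nt. Short reads of 14 to 18 nt made up 15.3% of the reads at the 5p arm of miR-181a, 6.87% at that of miR-181b, 2.50% at that of miR-181d and 0% at that of miR-181c.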

How the data were processed

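The authors deposited raw read counts for the mature miRNAs of miRBase 11 in 12 lane files. Reads had been sorted by index, trimmed and kept from 14 nt upwards, and Bowtie (its version is not given in the sources used here) had matched them with at most 2 mismatches. The genome alignment files on NCBIM37 hold a constant alignment score, as deposited, that was not used. Both runs of a library were summed. The tests used edgeR 4.0.16 (quasi-likelihood, TMM, Benjamini-Hochberg) in R 4.3.3 on 431 miRNAs with at least 2 counts in FCx or HP, with DESeq2 1.42.0 as an alternative. Every adjusted p comes from edgeR unless another test is named. P-values measure only the technical spread between libraries of 1 pool.

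Whether the index pairs the libraries was checked on log2 CPM (prior count of 2) after the mean of the region was taken off. The same-index pairs of FCx and HP libraries had r of 0.772, 0.854 and 0.836, so the index was also fitted as a block. The other pairs had -0.597 to -0.245. With the mean of the region taken off, positive same-index pairs bring negative values in the others, so those add no separate support. Shares were compared with exact permutation tests in scipy 1.17.1, intervals are 95% Wilson intervals, and the limit for a count of 0 was set at 3 counts. No p is given for the family total. Arms were placed by matching RefSeq mature sequences, which gave 1 or 2 loci each, to NCBIM37 hairpins, with GENCODE vM1 genes. The fits were tested on simulated data. The named miRNAs are the members, their star rows, the 3 miRNAs most like each member and the 2 with the smallest p of each list. The HP-side calls of the choroid plexus and ependyma list were added to them. The members and lists were chosen with earlier results of these data known.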

Additional observations from a re-analysis of the deposited data

Results flagged for a closer look

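Arms of the miR-181 hairpins with no row in the count tables gave reads in the genome alignments, above the 3 reads that a count of 0 allows. The 3p arm of Mir181c gave 440 reads over the 6 libraries, 90 in FCx and 350 in HP. The 3p arm of Mir181b-1 gave 28 reads, 3 in FCx and 25 in HP. Neither has a row of its own in the comparisons of the count tables. Whether reads of the 3p arm of Mir181c are among the counts of mmu-miR-181a-1* was not tested, and there are no control samples against which to set these arms.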

How the results depend on the processing

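The libraries are technical replicates of 1 RNA pool per region, so nothing here measures differences between mice, and miR-181c in FCx rests on 12 to 37 counts per library. No member was called between FCx and HP in any of 21 fits, and the index effect of miR-181b held in all 11.

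The number of miRNAs called between FCx and HP, 2 without a block, was 77 with the replicate block (index as a block), 56 with the block and library totals and 41 with the block in DESeq2. It was 12 with DESeq2 without the block, 14 with the exact test of edgeR over 12 lanes, 8 without a filter and 7 with the individual lanes. Leaving out 1 library gave 0 (without the HP library of index 3 or of index 11) to 9 without the block, and leaving out index 3, 7 or 11 gave 30, 28 and 50 with it. The number with an index effect, 264, stayed within 1.5 times in every alternative (at least 197 with a library left out).

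The log2 ratio of FCx over HP was positive in 12 of 21 fits for miR-181a, 16 for miR-181b, 16 for miR-181c and 4 for miR-181d. For miR-181a it changed sign to 0.31 with library totals, 0.0877 with DESeq2's size factors, 0.0876 with DESeq2, 0.30 with the exact test, 0.0767 without a filter, 0.23 with the block and library totals and 0.0804 with the block in DESeq2. For miR-181c the same alternatives gave 0.45, 0.19, 0.18, 0.56, 0.22, 0.22 and 0.0932, a minimum of 10 counts gave 0.00526 and the pooled lanes 0.34. For miR-181d library totals gave 0.0343 and the block with library totals 0.0770. For miR-181b the block gave -0.00586 and the pooled lanes -0.18. Without 1 library the ratios ranged from -0.13 to 0.23 (miR-181a), -0.80 to 1.29 (miR-181b), -0.38 to 0.51 (miR-181c) and -0.30 to 0.14 (miR-181d). With the block and without index 3, 7 and 11 they were -0.26, 0.11 and 0.19 for miR-181a and -0.42, 0.27 and 0.29 for miR-181c. The miR-181b values at both ends are those without the FCx library of index 11 and without the HP library of index 11. The cause of these changes was not tested.

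For the index effect, miR-181c lost its call with DESeq2's size factors (-0.94, index 11 minus 3) and with the pooled lanes (-1.47). With 1 library left out the differences ranged from -1.56 to -0.65 for miR-181c, -1.19 to -0.52 for miR-181d (index 11 minus 7), 1.99 to 2.19 for miR-181b (index 11 minus 3) and -0.55 to 0.16 for miR-181a (index 7 minus 3). The cause was not tested.

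The family total in FCx minus HP, 815 CPM, was -165 CPM with TMM and 411 to 1481 CPM without 1 library. The shares in FCx minus HP without 1 library ranged from -10.8 to 7.43 percentage points (miR-181a), -8.72 to 12.4 (miR-181b), -0.408 to 0.491 (miR-181c) and -2.36 to 0.803 (miR-181d), and the share of miR-181c was -0.111 with the individual lanes. The share of reads at the annotated start in FCx minus HP turned to 0.0927 (reads of 18 to 26 nt) and 0.0591 (individual lanes) for miR-181a, 0.108 (pooled lanes) for miR-181b and 2.64 (pooled lanes) for the 3p arm of Mir181c. Without 1 library it ranged from -0.516 to 0.441 (miR-181a), -0.950 to 0.600 (miR-181b), -12.4 to -8.72 (miR-181c), -3.22 to 0.477 (miR-181d), -8.61 to -1.95 (3p arm of Mir181c) and -1.06 to 2.06 (3p arm of Mir181a-1). With genome alignments as the denominator in place of miRNA counts, the log2 ratio of the mean levels turned to -0.36 for miR-181a, -0.20 for miR-181b, -0.22 for miR-181c and -0.66 for miR-181d, from positive values in all 4. The cause was not tested.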
